A study of Mus musculus with 8 samples.

Results

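Branched-chain amino acid breakdown was followed through 10 genes that encode its central enzymes and the regulators of its committed step: Bcat2, Bckdha, Bckdhb, Dbt, Bckdk, Ppm1k, Ivd, Acad8, Hibadh and Mmut (listed as Mut in older annotations). They were chosen by symbol, with earlier results of these data known, and all 10 were found among the 19938 genes with a transcript cluster annotated to 1 symbol. A transcript cluster is the set of array probes summarised into 1 value. Each of 8 male mice, aged 6 months, gave 1 Affymetrix whole-transcript array from its gastrocnemius, a calf muscle of mixed fibre types. All of them ate chow and were fasted for 5 h. The 4 knockout animals (Gcn5skm-/-) carried both copies of Kat2a, the gene of the lysine acetyltransferase Gcn5, as the floxed L2 allele, together with 1 copy (Tg/0) of the HSAcre transgene, in which human skeletal actin regulatory sequence drives Cre in muscle fibres. The 4 wild-type animals (Gcn5skm+/+) carried the same floxed L2/L2 alleles and no Cre (HSAcre 0/0). Effects of Cre itself and of the deletion therefore cannot be told apart, and cells other than fibres kept the gene in both groups.

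Leucine, isoleucine and valine are the branched-chain amino acids. Muscle is a main site of their transamination, in which the amino group is moved to a carrier and a branched-chain keto acid is left. The mitochondrial branched-chain keto acid dehydrogenase complex then removes a carboxyl group irreversibly. It is switched off when a dedicated kinase phosphorylates it and on again when a phosphatase removes the phosphate. Separate branches for each amino acid then lead to acetyl-CoA, acetoacetate or succinyl-CoA. In mouse muscle the coactivator PGC-1alpha, whose activity Gcn5 can lower by acetylation, and the transcription factor KLF15 are known to raise genes of this pathway.

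The labels were checked first. Kat2a measured 5.81, 5.84, 5.79 and 5.73 in knockouts 1 to 4, against 6.50, 6.46, 6.45 and 6.43 in wild types 1 to 4 (log2 expression). Its difference, knockout minus wild type, was -0.66 (SE 0.08, limma adjusted p = 0.0319), and the groups did not overlap. The call rested on most single arrays: without wild type 3, without wild type 4 and without each knockout in turn the limma adjusted p lay between 0.0619 and 0.137, with differences of -0.68 to -0.64. Of the 12 fibre genes checked, such as Acta1, Ckm and Ttn, all were measured, with a mean of 11.51 to 11.63 in knockouts and 11.59 to 11.66 in wild types. Wild type 2 stood apart on the first principal component of all genes, and was the highest or the lowest array for 24.6% and 21.1% of genes. Array medians lay between 4.61 and 4.72.

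Transcripts of the breakdown pathway did not differ detectably between the genotypes. Of the 10 genes, 0 were called higher and 0 lower at a limma adjusted p of 0.05, a rule that called 0.0150% of all genes (3 of 19938, 0.00502% higher and 0.0100% lower). At an unadjusted limma p under 0.05 the count was also 0, against 5.73% of all genes (2.34% higher and 3.39% lower). The groups overlapped for all 10, and they did not overlap for 3.62% of all genes. Among 10 genes, counts of 0 are near these shares. Fitted differences lay between -0.12 for Bcat2 and 0.12 for Acad8, 6 above and 4 below 0. Their median was 0.02, and that of all genes was -0.01. The median size of a difference, sign set aside, was 0.05 for the 10 genes and 0.08 for all genes. Taken over all 10, the 95% intervals of the differences ran from -0.36 to 0.34, or from 0.781 to 1.27 of the wild-type level. These intervals are for each gene singly, with 4 arrays a group, and they are not limits of detection. In simulated data of this comparison, the fit called 1.6% of genes given a change of 0.25 log2 units and 44% at 0.5. Each draw held 200 changed genes, whereas 3 genes passed in the deposited values. The adjusted threshold is then stricter, so these shares are likely too high here. A change inside the intervals, or somewhat beyond them, could therefore go uncalled. In bulk muscle, fewer cells of a type and less RNA per cell cannot be told apart.

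**Figure D1:**
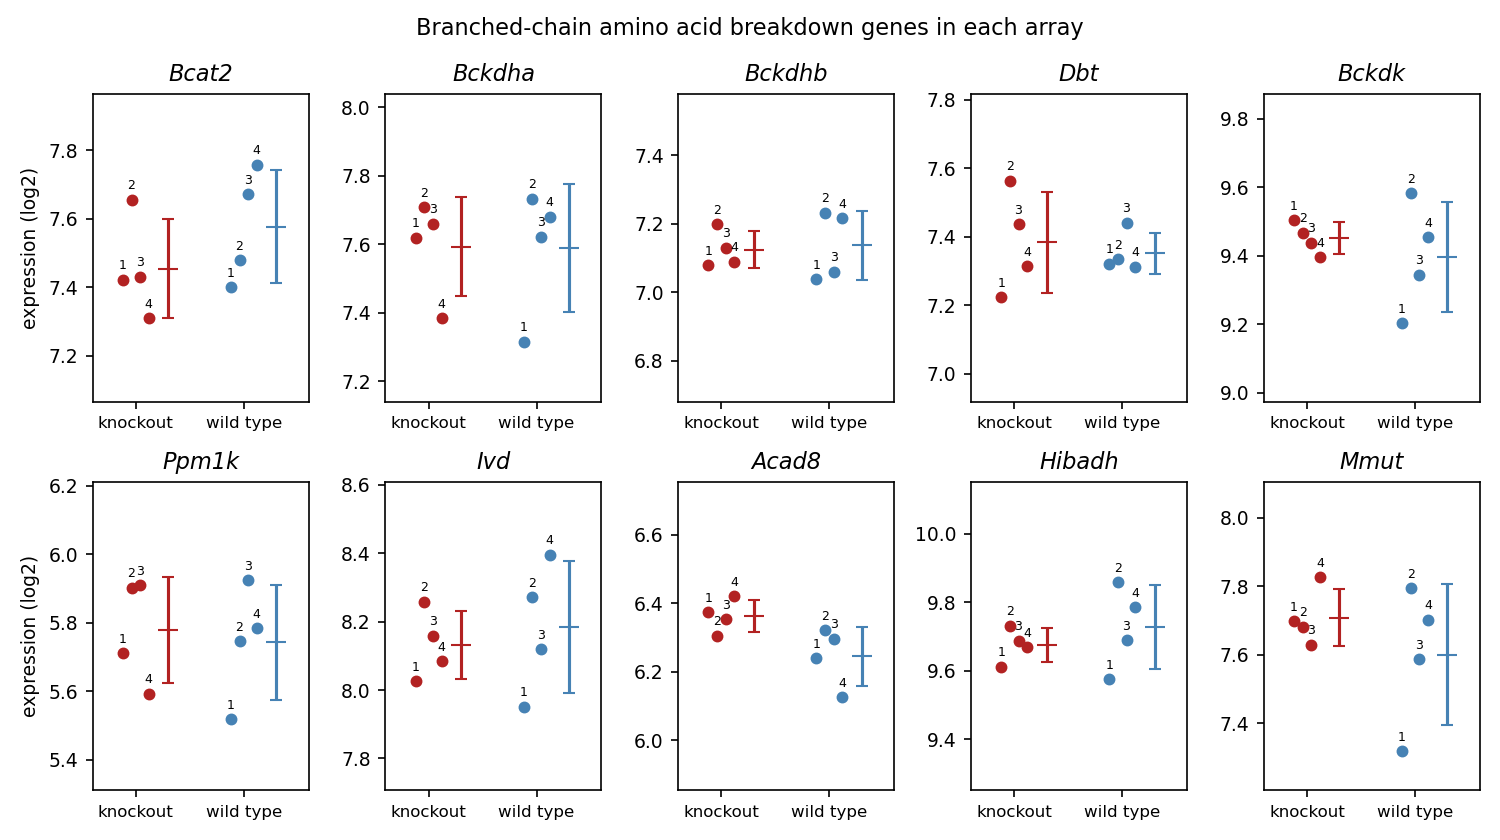
Log2 expression of each of the 10 genes (vertical axis, the same span in every panel) in the 4 knockout arrays (left, red) and the 4 wild-type arrays (right, blue), numbered by replicate, with the mean and SD of each group beside the points. The groups overlap in every panel, and wild type 1 is the lowest of the 8 arrays in 7 panels.

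Bcat2 encodes the mitochondrial branched-chain aminotransferase, which carries out the transamination step in muscle. It measured 7.42, 7.66, 7.43 and 7.31 in knockouts 1 to 4, against 7.40, 7.48, 7.67 and 7.76 in wild types 1 to 4. Wild types 3 and 4 were above all knockouts, whereas knockout 2 was above wild types 1 and 2. The mean was 7.45 ± 0.15 in knockout and 7.58 ± 0.17 in wild-type muscle (SD, n = 4 each). The difference of -0.12 (95% interval -0.36 to 0.11, limma adjusted p = 0.911) was the lowest of the 10 and smaller than either SD.

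Bckdha, Bckdhb and Dbt encode the dehydrogenase complex itself: the alpha and beta chains of its decarboxylase and the acyltransferase that forms its core. Bckdha measured 7.62, 7.71, 7.66 and 7.38 in knockouts 1 to 4, against 7.32, 7.73, 7.62 and 7.68 in wild types 1 to 4. Each group held 1 low array, knockout 4 and wild type 1, and the other 6 lay within a narrow band. The group means were 7.59 ± 0.14 in knockout and 7.59 ± 0.19 in wild type (SD, n = 4 each), and the difference was 0.0048 (95% interval -0.24 to 0.25). Bckdhb measured 7.08, 7.20, 7.13 and 7.09 in knockouts 1 to 4 and 7.04, 7.23, 7.06 and 7.22 in wild types 1 to 4. The wild types formed a high pair, 2 and 4, and a low pair, 1 and 3, and the knockouts lay between the extremes. Its difference was -0.01 (95% interval -0.20 to 0.17). Dbt measured 7.22, 7.56, 7.44 and 7.31 in knockouts 1 to 4 and 7.32, 7.33, 7.44 and 7.31 in wild types 1 to 4. It was the exception in spread, being more variable in knockouts (SD 0.15) than in wild types (SD 0.06). Its difference was 0.03 (95% interval -0.17 to 0.23). The limma adjusted p was 0.996 for Bckdha, 0.988 for Bckdhb and 0.977 for Dbt.

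Bckdk encodes the kinase that inactivates the complex and Ppm1k the mitochondrial phosphatase that reactivates it. Bckdk measured 9.50, 9.47, 9.44 and 9.40 in knockouts 1 to 4, against 9.20, 9.58, 9.34 and 9.45 in wild types 1 to 4. All 4 knockouts fell inside the wild-type range, with an SD of 0.05 in knockout and 0.16 in wild type. The difference was 0.06 (95% interval -0.15 to 0.26, limma adjusted p = 0.949). Ppm1k measured 5.71, 5.90, 5.91 and 5.59 in knockouts 1 to 4 and 5.52, 5.75, 5.92 and 5.79 in wild types 1 to 4. Knockouts 2 and 3 and wild type 3 were high, and knockout 4 and wild type 1 low. Its difference was 0.04 (95% interval -0.20 to 0.27, limma adjusted p = 0.977). With 1 array left out, the difference of the kinase gene ran from -0.0091 without wild type 1 to 0.12 without wild type 2. That of the phosphatase gene ran from -0.039 without wild type 1 to 0.098 without knockout 4. These values say nothing of the phosphorylation of the complex, which arrays do not measure.

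Ivd encodes isovaleryl-CoA dehydrogenase of the leucine branch. It measured 8.03, 8.26, 8.16 and 8.08 in knockouts 1 to 4, against 7.95, 8.27, 8.12 and 8.39 in wild types 1 to 4. The lowest and the highest array were both wild type, and the difference was -0.05 (95% interval -0.28 to 0.18, limma adjusted p = 0.959).

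Acad8 and Hibadh act in the valine branch, as isobutyryl-CoA dehydrogenase and as the dehydrogenase of hydroxyisobutyrate. Acad8 measured 6.37, 6.30, 6.35 and 6.42 in knockouts 1 to 4, against 6.24, 6.32, 6.30 and 6.13 in wild types 1 to 4. It came nearest to separated groups: in 15 of the 16 pairings of a knockout with a wild type the knockout was higher, and knockout 2 lay below wild type 2. The mean was 6.36 ± 0.05 in knockout and 6.25 ± 0.09 in wild-type muscle (SD, n = 4 each). Its difference of 0.12 (95% interval -0.06 to 0.30) was the one with the smallest limma p of the 10 genes, and it did not pass (limma adjusted p = 0.879). Hibadh measured 9.61, 9.73, 9.69 and 9.67 in knockouts 1 to 4 and 9.57, 9.86, 9.69 and 9.79 in wild types 1 to 4. Its knockouts again lay inside the wild-type range, and the difference was -0.05 (95% interval -0.24 to 0.14, limma adjusted p = 0.949). A second, dim Hibadh cluster (mean 2.17) differed by 0.03, and 2 clusters annotated to Hibadh together with Top2a were not used.

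Mmut encodes methylmalonyl-CoA mutase, a vitamin B12 enzyme. It turns methylmalonyl-CoA, made from the propionyl-CoA product of valine and isoleucine, into succinyl-CoA. Mmut measured 7.70, 7.68, 7.63 and 7.83 in knockouts 1 to 4, against 7.32, 7.79, 7.59 and 7.70 in wild types 1 to 4. Wild type 1 was far below the other 7 arrays, while knockout 4 was the highest. The mean was 7.71 ± 0.08 in knockout and 7.60 ± 0.21 in wild type (SD, n = 4 each), and the difference was 0.11 (95% interval -0.13 to 0.34, limma adjusted p = 0.924). With 1 array left out the difference ran from 0.01 without wild type 1 to 0.17 without wild type 2.

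**Figure D2:**
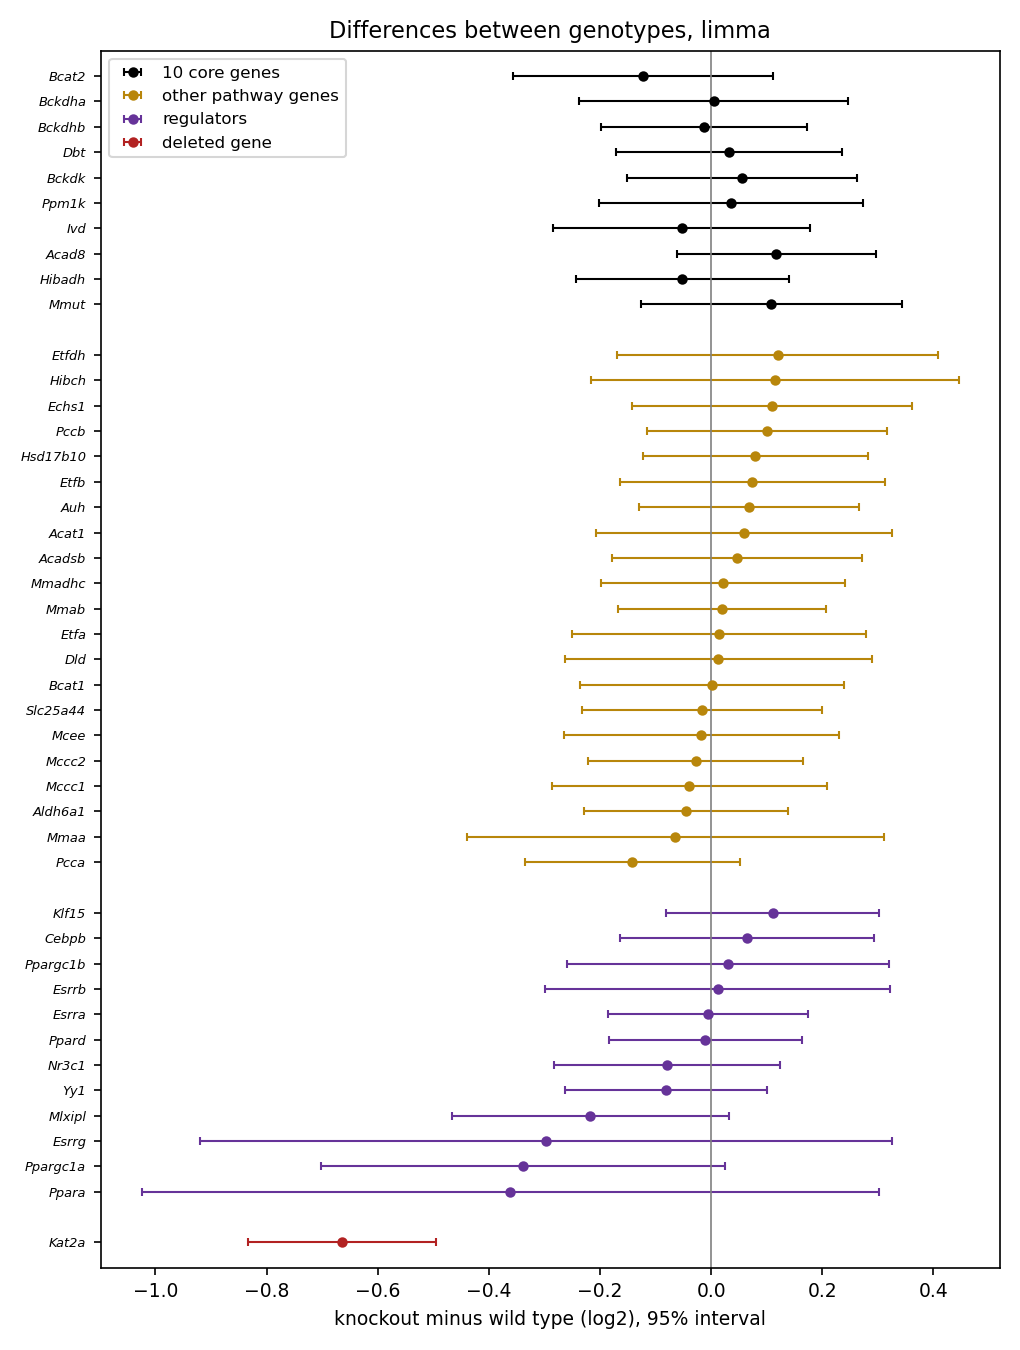
Fitted difference, knockout minus wild type, in log2 units (horizontal axis) with its 95% interval for the 10 core genes, 21 other pathway genes, 12 regulators and Kat2a, from top to bottom. The interval includes 0 for every gene except Kat2a, at -0.66.

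Other genes of the pathway were counted in the same fit. The list held 21 measured genes. At a limma adjusted p of 0.05, 0 were called higher and 0 lower (0.0150% of all genes in either direction). At an unadjusted limma p under 0.05 the count was 0, against 5.73% of all genes. Their differences ran from -0.14 to 0.12, 14 above and 7 below 0, with a median of 0.02. Pcca and Pccb encode the chains of propionyl-CoA carboxylase, which acts ahead of the mutase. Pcca measured 7.09, 7.23, 7.14 and 7.05 in knockouts 1 to 4, against 7.27, 7.40, 7.12 and 7.28 in wild types 1 to 4, so that 3 wild types were above all knockouts and wild type 3 was among the low arrays. Its difference was -0.14 (limma adjusted p = 0.876), and that of Pccb was 0.10 (limma adjusted p = 0.923), the opposite sign. Echs1, which hydrates the unsaturated intermediates of valine and isoleucine, differed by 0.11. Auh, a hydratase of the leucine branch, differed by 0.07, and Hsd17b10, a dehydrogenase of the isoleucine branch, by 0.08. Etfdh, which passes electrons from Ivd and Acad8 to the respiratory chain, differed by 0.12. Limma adjusted p values of these 4 lay between 0.928 and 0.936. Dld, the dihydrolipoyl dehydrogenase of the complex, differed by 0.01, and the mitochondrial carrier gene Slc25a44 by -0.02.

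Transcriptional regulators linked to oxidative and amino acid metabolism in muscle were a list of 12 genes. Of these, 0 passed a limma adjusted p of 0.05 in either direction (0.0150% of all genes). At an unadjusted limma p under 0.05 the count was also 0 (5.73% of all genes). Among 12 genes, counts of 0 are near these shares. Ppargc1a, which encodes PGC-1alpha, measured 8.65, 8.81, 9.13 and 8.43 in knockouts 1 to 4, against 8.77, 9.01, 9.51 and 9.09 in wild types 1 to 4. Wild type 3 was above all other arrays, knockouts 1 and 4 were below every wild type, and knockouts 2 and 3 lay among the wild types. Its difference was -0.34 (95% interval -0.70 to 0.03, limma adjusted p = 0.869). Klf15 measured 7.20, 7.04, 7.31 and 7.19 in knockouts 1 to 4 and 7.00, 7.08, 7.05 and 7.17 in wild types 1 to 4. Here 3 knockouts were above every wild type, with a difference of 0.11 (95% interval -0.08 to 0.30, limma adjusted p = 0.900). Esrra, the estrogen-related receptor through which PGC-1alpha acts on oxidative genes, differed by -0.01 (95% interval -0.18 to 0.17). Mlxipl, a carbohydrate-responsive factor, differed by -0.22, Ppara by -0.36, Esrrg by -0.30 and Yy1 by -0.08, with limma adjusted p values between 0.869 and 0.925. Ppara and Esrrg had the widest spread of the list, with SDs of 0.76 and 0.63 in knockouts and 0.37 and 0.47 in wild types.

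For each of the 10 genes the wild-type arrays spanned a wider range than the difference between the genotypes. Wild type 1 was the lowest of the 8 arrays for 7 of the 10 genes (Bckdha, Bckdhb, Bckdk, Ppm1k, Ivd, Hibadh and Mmut), and below the 8-array mean of all 10. Over all genes that array was the lowest for 10.1%. It was also the lowest for 9 of the 21 other pathway genes. Knockout 2 was above the mean for all 10 genes. Wild type 2 was the highest array for 4 of the 10 and for 10 of the other 21, but it was the highest for 24.6% of all genes. The mean deviation of the 10 genes from their own 8-array means was -0.03, 0.09, 0.02 and -0.05 in knockouts 1 to 4, against -0.17, 0.07, 0.01 and 0.06 in wild types 1 to 4. The SD was larger in wild types than in knockouts for 9 of the 10 genes, Dbt being the exception, a pattern that 67.6% of all genes showed.

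**Figure D3:**
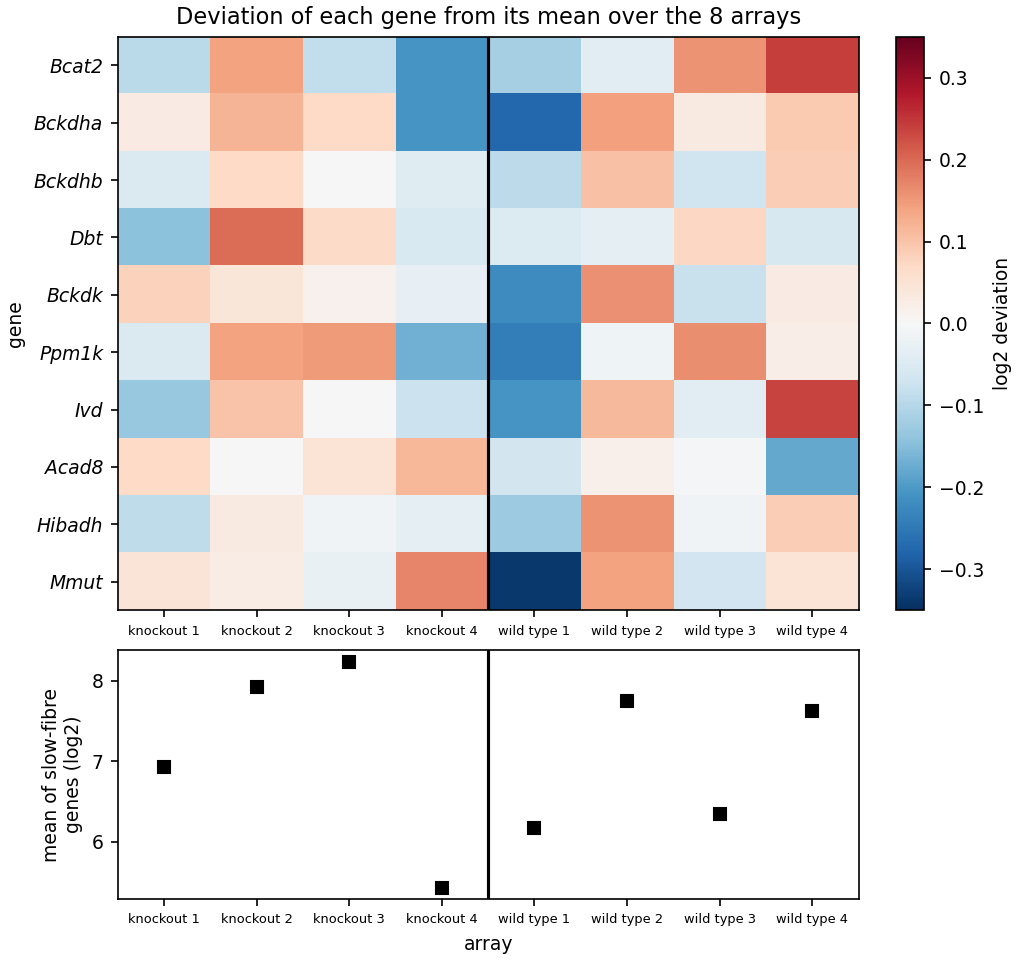
Upper panel, deviation of each of the 10 genes (rows) from its own mean over the 8 arrays, in log2 units, with knockouts left and wild types right of the black line; lower panel, mean log2 level of 12 slow-fibre genes in the same arrays. Wild type 1 is below the mean for all 10 genes and knockout 2 above it for all 10, and the slow-fibre mean runs from 5.43 in knockout 4 to 8.24 in knockout 3.

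Markers of fibre type and of other cells were set beside these values. Slow-fibre genes had 12 of 12 measured. Their mean was 6.92, 7.92, 8.24 and 5.43 in knockouts 1 to 4, against 6.17, 7.74, 6.35 and 7.63 in wild types 1 to 4. The arrays with the lowest slow-fibre mean, knockout 4 and wild type 1, also had the lowest mean deviations of the 10 genes. Over the 8 arrays the 2 measures had a Pearson r of 0.71 and a Spearman rho of 0.81, and r was 0.56 without those 2 arrays. The mean of the 12 fibre genes had an r of 0.58 and a rho of 0.90 with the 10 genes (r 0.84 without knockouts 1 and 4). These are descriptions, since values of 1 array share its RNA and normalization. With the slow-fibre mean as a covariate the median difference of the 10 genes was 0.0027, and 0 passed. Macrophage markers (17 of 17 measured) had a mean of 5.63 to 6.26 in knockouts and 5.48 to 5.62 in wild types, and 16 of 17 had differences above 0, against 45.3% of all genes. Of the 17, 7 were higher at an unadjusted limma p under 0.05 (2.34% of all genes) and 0 were lower. Knockouts were all above wild types for 3 of the 17, and for 295 of the 19938 genes. Over the arrays the macrophage mean had an r of -0.13 with the 10 genes (0.17 without knockouts 3 and 4). Adipocyte markers (10 of 12 measured) had a mean of 6.31 to 7.00 in knockouts and 6.17 to 6.88 in wild types, with an r of -0.53 (-0.73 without knockout 1 and wild type 2). Endothelial markers (12 of 12) had a mean of 6.95 to 7.39 in knockouts and 7.04 to 7.41 in wild types, with an r of 0.64 (0.42 without knockout 2 and wild type 4). Schwann cell markers (9 of 12) had a mean of 5.14 to 5.61 in knockouts and 5.15 to 6.07 in wild types, and erythroid markers (5 of 10) a mean of 5.25 to 5.41 in knockouts and 5.11 to 5.24 in wild types. At an unadjusted limma p under 0.05, 1 of 10 adipocyte and 2 of 5 erythroid markers were higher and 0 lower. By the same rule 1 of 12 endothelial and 2 of 9 Schwann cell markers were lower and 0 higher. Over all genes 2.34% were higher and 3.39% lower. Differences were above 0 for 7 adipocyte, 3 endothelial, 2 Schwann cell and 4 erythroid markers. At a limma adjusted p of 0.05, 0 genes of these lists passed (0.0150% of all genes). Their part in the levels of the 10 genes was not tested.

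Many of the 10 genes varied together from array to array. Among their 45 pairs the median Pearson r over the 8 arrays was 0.47, and 20 pairs (44.4%) had an r above 0.5. Over all pairs of the 19938 genes the median was 0.0030 and 14.1% were above 0.5. Those pairs include dim genes, whereas the mean of each of the 10 lay at percentile 64.8 of all genes or above. The pattern was not particular to the 10. The mean level of the 21 other pathway genes had an r of 0.82 with their mean deviation (rho 0.93, r 0.74 without wild types 1 and 2). With each gene centred within its genotype the median of the 45 was 0.49. Bckdhb, Ivd and Hibadh were the most alike. Bckdhb had an r of 0.92 with Ivd (rho 0.90; r 0.90 without wild types 2 and 4) and 0.91 with Hibadh (rho 0.86; r 0.79 without the same arrays). Ivd and Hibadh had an r of 0.89 (rho 0.95; r 0.88 without wild types 1 and 4). Some other high values were lower without 2 arrays: Bckdk and Mmut had an r of 0.82 and 0.19 without wild types 1 and 2, and Bckdha and Ppm1k 0.81 and -0.10 without knockout 4 and wild type 1. Without knockout 4 and wild type 1, Bckdha had an r of 0.94 with Bckdhb and 0.87 with Hibadh, against 0.74 and 0.72 over all 8. Bckdk and Ppm1k, the kinase and the phosphatase, had an r of 0.40 and -0.16 without wild types 1 and 2. The lowest r of the 45 was -0.72, for Acad8 and Bcat2 (rho -0.64; r -0.42 without wild types 3 and 4). Acad8 had an r of 0.38 with Mmut and -0.48 with Ivd, and these were 0.75 and 0.28 without knockout 4 and wild type 4.

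Promoter sequence of Bckdhb, Ivd and Hibadh is shown because these genes varied together most closely. Each line gives the 250 bases before the first listed start site, 5′ to 3′ on the strand of the gene, from RefSeq (GRCm38.p6), and capitals mark CCAAT or its reverse complement ATTGG. The windows are chr9:83924887-83925136 on the plus strand for Bckdhb, chr2:118861744-118861993 on the plus strand for Ivd and chr6:52640301-52640550 on the minus strand for Hibadh.
Bckdhb: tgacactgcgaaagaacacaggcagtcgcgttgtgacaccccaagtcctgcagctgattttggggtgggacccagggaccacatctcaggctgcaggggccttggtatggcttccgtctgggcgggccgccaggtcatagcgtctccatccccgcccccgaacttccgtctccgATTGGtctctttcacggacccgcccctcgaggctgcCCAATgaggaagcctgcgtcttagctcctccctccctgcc
Ivd: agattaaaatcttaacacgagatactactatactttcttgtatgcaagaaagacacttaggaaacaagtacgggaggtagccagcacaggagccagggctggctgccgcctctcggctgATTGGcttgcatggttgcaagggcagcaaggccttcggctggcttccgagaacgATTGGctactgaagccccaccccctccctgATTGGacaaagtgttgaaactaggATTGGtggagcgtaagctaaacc
Hibadh: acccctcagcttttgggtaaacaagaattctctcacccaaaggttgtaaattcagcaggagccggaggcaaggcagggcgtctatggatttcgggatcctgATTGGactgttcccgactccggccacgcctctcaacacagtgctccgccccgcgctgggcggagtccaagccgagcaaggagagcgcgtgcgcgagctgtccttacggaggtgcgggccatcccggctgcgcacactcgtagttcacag
CCAAT is the letter pattern known for binding the factor NF-Y in many promoters. It occurred 4 times in the Ivd window, all as ATTGG, 2 times in that of Bckdhb and 1 time in that of Hibadh. Of the 8 genes with a listed promoter (all but Dbt and Mmut), 6 held it on either strand in the window of the first start site. Of 27025 genes read in that way, 34.5% did. Among all 32851 windows, further start sites included, 4 or more matches were present in 0.840%. GGGCGG, read on both strands, was present for 4 of the 8 and for 32.9% of the 27025 genes, first start sites only. AAGGTCA, the core element known for estrogen-related receptors, was read on both strands as well. It was found for 0 of the 8 and for 4.05% of the 27025 genes. ATTGG and GGGCGG can share G letters where they abut, and the patterns were chosen after the windows had been seen. A match describes letters and is not a shown binding site.

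Genes outside the pathway whose pattern over the 8 arrays was most like the mean of the 10 were Ptges2 (r 0.97), 5730596B20Rik (0.94), Nhlrc3 (0.94), Olfr17 (0.94) and Rassf8 (0.94). For Bcat2 alone they were Gabrq (0.97), Actn4 (0.96), Sri (0.96), Rusc1 (0.96) and Nav1 (0.96). Ptges2, with a mean of 6.29 in knockout and 6.24 in wild-type muscle, also had no difference past the threshold (0.05, limma adjusted p = 0.958). These are the highest of 19928 correlations, each over 8 arrays. Several of the genes are dim, such as Olfr17 with a mean of 3.32 and Gabrq with 3.50.

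**Figure D4:**
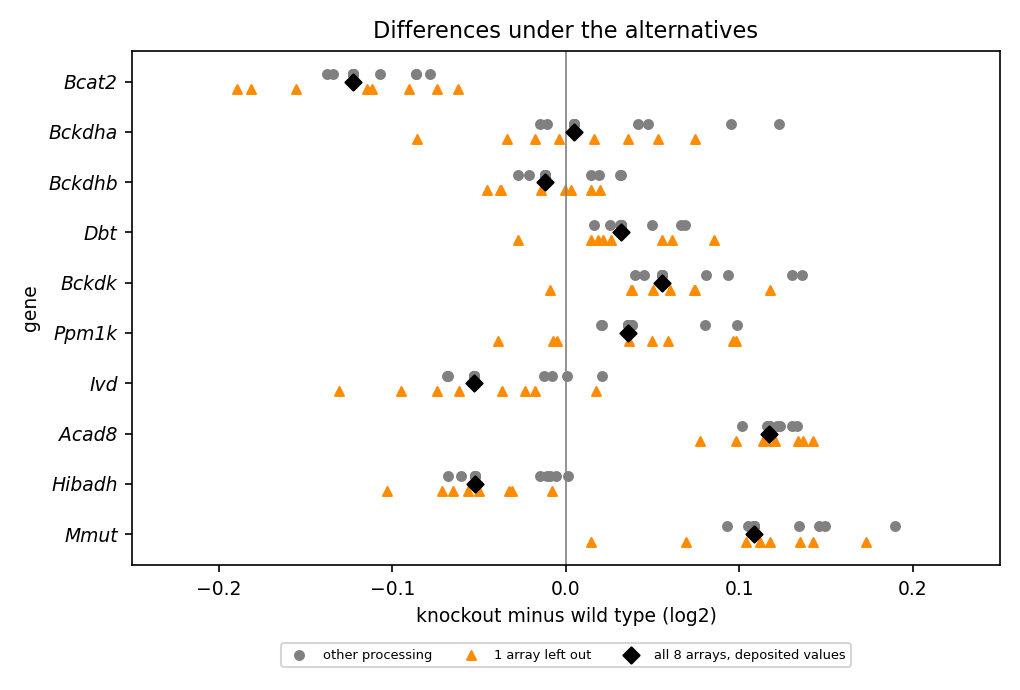
Difference of each of the 10 genes, knockout minus wild type, in log2 units (horizontal axis) with all 8 arrays and the deposited values (diamonds), with 1 array left out (triangles) and under other processing (circles). All points lie between -0.19 and 0.19, and Bcat2, Acad8 and Mmut stay on 1 side of 0.

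The range of the 10 differences over 20 alternatives is set out in the plot of alternatives. At a limma adjusted p of 0.05, 0 of the 10 genes passed in any of the 20, with adjusted p values of 0.717 or above, and 0 passed an unadjusted p of 0.05. The lowest unadjusted limma p was 0.0811, for Mmut with array weights. Bcat2 remained below 0, between -0.19 and -0.06, Acad8 above 0, between 0.08 and 0.14, and Mmut above 0, between 0.01 and 0.19. The sign of the other 7 changed in at least 1 alternative.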

How the data were processed

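Total RNA of 1 gastrocnemius per animal was amplified and hybridised, 1 array each, per the labels' protocols. The deposited log2 values came from RMA, run in Affymetrix Expression Console as the submitters' processing notes record. RMA subtracts background, equalises the arrays' distributions and combines the probes of a cluster, and it compresses differences of dim transcripts. Its settings and version and the array's build are not given in the sources used here. Of 35556 clusters, 21789 had 1 symbol in the array annotation, 1621 several, and 12146 were unnamed here. For 21698 the Entrez number matched the GRCm38.p6 RefSeq gene table. Where a gene had several clusters, that of highest mean over the 8 arrays was kept, which left 19938 genes with no filter.

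Groups came from the titles in the labels. The genotypes were set against each other in limma 3.58.1 under R 4.3.3, with lmFit and eBayes (6 residual and 6.26 prior degrees of freedom), p values adjusted after Benjamini-Hochberg over the 19938 genes, and 95% moderated intervals. Nothing but the genotype entered the fit. The number of arrays limits the precision: the SE of a difference was 0.08 to 0.11 for the 10 genes. The fit was tested on simulated data, 5 draws of this comparison with 200 of 19938 genes changed. It called 1.6% of genes given a change of 0.25 log2 units, 44% at 0.5 and 91.6% at 1. In the deposited values only 3 genes passed. With fewer genes passing, the adjusted threshold is stricter, so these shares are likely too high for the deposited values.

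The members and lists were chosen with earlier results of these data known. Named were the 10 genes, Kat2a, the 6 genes of smallest p in the other-pathway and regulator lists, Klf15, Ppargc1a, Esrra and the 5 genes most correlated with the mean of the 10 and with Bcat2. Dld and Slc25a44 fall outside this rule and were named after their values were seen. Alternatives were other normalizations, filters on dim genes, the mean over clusters, all clusters, a robust prior with intensity trend, weights per array, a replicate block, a slow-fibre covariate and leaving out arrays. Promoters came from RefSeq. Python 3.11.15 with matplotlib 3.10.9 drew the figures.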

Additional observations from a re-analysis of the deposited data

How the results depend on the processing

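The count of the 10 genes past the threshold was 0 in all 20 alternatives, as were the counts of other pathway genes and regulators. Of the other pathway genes, 1 had an unadjusted limma p under 0.05 without wild type 2 and 2 without wild type 2 and knockout 4 together. The median difference of the 10 genes was between -0.04 and 0.06 when 1 array was left out. It was 0.07 without wild type 2 and knockout 4, and 0.06 with array weights. The per-array median deviation of the 10 genes had an SD of 0.0965 within groups. That is a spread of single arrays, and a difference of group means varies less. Differences near 0 changed sign. Bckdha was -0.011 after median centring and -0.015 with the slow-fibre covariate. Bckdhb was 0.015 after renewed quantile normalization, 0.019 after cyclic loess, 0.032 with array weights and 0.031 without wild type 2 and knockout 4. Ivd was 0.00054 after quantile normalization and 0.021 with array weights, and Hibadh 0.00090 with array weights. With 1 array left out the ranges were -0.086 to 0.074 for Bckdha, -0.045 to 0.020 for Bckdhb, -0.028 to 0.085 for Dbt, -0.0091 to 0.12 for Bckdk, -0.039 to 0.098 for Ppm1k and -0.13 to 0.017 for Ivd. The cause was not tested.

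Kat2a did not pass over all deposited clusters (-0.66, limma adjusted p = 0.0660), with the replicate block (-0.66, adjusted p = 0.113) or without wild type 2 and knockout 4 (-0.64, adjusted p = 0.135), and with 1 array left out it was -0.68 to -0.64 (adjusted p from 0.0355 to 0.137). Over all genes 3 passed, but 0 over all clusters or with the replicate block, 11 and 13 without the dimmest 25% and 50%, 17 with the intensity trend, 1 without wild type 2 and knockout 4, and 0 to 5 with 1 array left out. Same-numbered arrays had correlations of 0.0939, 0.0655, 0.222 and -0.103 between their deviations from the group means. The best wild type of another number had 0.0261, 0.0720, 0.0816 and 0.122 with knockouts 1 to 4. The same number was thus the closer match for knockouts 1 and 3, but not for 2 and 4. The labels state no pairing, and the numbers were not taken as pairs. In this balanced design the block leaves every difference as it is and moves only its error.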

Other observations

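The balance of Bckdk and Ppm1k transcripts, taken as the deviation of Bckdk from its 8-array mean minus that of Ppm1k, was 0.13, -0.10, -0.13 and 0.14 in knockouts 1 to 4, against 0.02, 0.17, -0.24 and 0.0067 in wild types 1 to 4 (log2). It was low in knockouts 2 and 3 and wild type 3 and did not separate the genotypes.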
